A study of Homo sapiens with 4 samples.

Results

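The genes described here are 10 products of wet and glandular epithelia: the secreted proteins OLFM4, LCN2 and TCN1, the folding factor AGR2, the membrane mucins MUC1, MUC4, MUC16 and MUC20, and the adhesion molecules CEACAM1 and CEACAM6. They were taken by symbol from a table of 58825 genes, and each matched exactly 1 row. They were picked by name with their levels in these libraries, and how those levels differed between the groups, already known. Their values are therefore given as a description, without p-values, and do not count as independent evidence that such genes changed.

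Mucosal surfaces such as the airway, the gut and the ducts of glands are covered by mucus and by a brush of membrane-bound mucins, and their cells release antimicrobial and carrier proteins into the fluid above them. Membrane mucins span the cell membrane, carry long sugar-coated repeats and shed their outer part, whereas gel-forming mucins are secreted whole. The epidermis is a dry stratified epithelium that makes little of these products, although LCN2 is known to be induced in inflamed skin. OLFM4, LCN2, TCN1 and several CEACAM proteins are also known from the granules or surface of neutrophils.

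RNA was sequenced in 4 libraries of HaCaT, an immortalised line derived from adult human skin. The cells grew in MEPICF500 medium with 1.2 mM Ca2+, a level that favours differentiation. They had received a lentivirus with a control hairpin (shNC, 2 libraries) or with one targeting lnc-DC, a long noncoding RNA (shlnc-DC, 2 libraries), so all 4 carried a lentiviral vector, and the purpose was to describe the effect of lnc-DC silencing on differentiating keratinocytes. The labels call the 2 libraries of a group biological replicates, but whether they were separate transductions, and whether each line was a clone or a pool, is not given in the sources used here, so the spread between them may be partly technical.

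Values are FPKM, fragments scaled to transcript length and to the mapped fragments of the library, as deposited by the authors; the scale is per length, so levels can be set side by side between genes. The table holds no counts, so the depth of a library is unknown. Between 22351 and 22780 genes were above 0 in a library, and summed FPKM was 319780 and 338424 in the control and 271297 and 274976 in the knockdown libraries. Transcripts of mitochondrial DNA made up 41.2% and 41.9% of that sum in the control and 28.1% and 26.8% in the knockdown libraries; rescaling to genes outside mitochondrial DNA turned the direction of none of the 9 measured members. WFDC21P, the gene of lnc-DC, had 2.15 and 2.76 FPKM in control and 0.09 and 0.29 FPKM in knockdown libraries. Its knockdown mean was 12.9-fold lower, and the ratio was 8.47 if knockdown replicate 1 was left out and 27.3 if knockdown replicate 2 was. The fitted log2 difference was -1.54 (SE 0.188), and WFDC21P was not called in the fit over all genes. A gene that was not called may therefore still differ between the groups.

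The cells did not show the full marker set of epidermal keratinocytes. KRT5 (287 FPKM in control), SFN (305 FPKM), TP63 (8.43 FPKM) and DSG3 (26.8 FPKM) were present. KRT14, which pairs with KRT5 in basal keratinocytes, was at most 0.35 FPKM, and KRT1, KRT2, DSG1 and LOR were listed at 0 in all 4. Keratins of simple and glandular epithelia were abundant, with KRT19 at 353, KRT18 at 275, KRT7 at 256 and KRT8 at 135 FPKM in the control mean. Of 18 epidermal keratinocyte genes, 10 averaged 1 FPKM or more in either group and 6 never exceeded 0.5 FPKM. Of 20 simple and glandular genes, 11 did and 9 never exceeded 0.5 FPKM. Both lists were thus present in part, and the label is used here only as the name of the line.

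The sequences just before the transcription starts of OLFM4, LCN2, TCN1 and AGR2 are shown because OLFM4, TCN1 and AGR2 had the largest fitted differences among the members and LCN2 the highest level. They come from RefSeq (GRCh38.p14), where 9 of the 10 members had an entry, all but MUC20, and a window is the 250 bases before the start, searched for 10 short motifs on both strands that were picked after the values were seen. LCN2, TCN1 and AGR2 each held the TATA-like letters ATAAATA, with the first base 29, 30 and 28 bases before the RefSeq start, and TCN1 held another match 157 to 151 bases before it. ATAAATA stood somewhere in 4.8% of 27305 promoter windows, and in the windows of 3 of 9 members. Each line below gives 30 bases from 5′ to 3′ on the gene's strand, with that ATAAATA in capitals. GENCODE 29 places the outer ends of these 3 genes further upstream than RefSeq: the stretches of TCN1 and AGR2 lie wholly in its exons (30 bases each) and that of LCN2 has 2 exonic bases.
LCN2, chr9:128149413-128149442, plus strand: ccctagatcccATAAATAgggccacccagg
TCN1, chr11:59866499-59866528, minus strand: cccatcacttaATAAATAgccagccaattc
AGR2, chr7:16805009-16805038, minus strand: tgccctggtgcATAAATAgagactcagctg

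The LCN2 window also held a loose form of the NF-kappaB site, GGG and CC with any 5 bases between them. Its first match, 176 to 167 bases before the start, overlaps a second one at 175 to 166 bases. The pattern is common, in 53.7% of the windows and in those of 5 of 9 members. The first match is in capitals in this line.
LCN2, chr9:128149267-128149296, plus strand: gcagcactccGGGAATGTCCctcactctcc

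OLFM4 held no ATAAATA, but 1 match to the AP-1 letters TGANTCA (6.6% of windows; LCN2 was the other member with one). The line below gives the 196 bases of its window that lie outside exons of GENCODE 29, with TGANTCA in capitals, 137 to 131 bases before the RefSeq start. The STAT letters TTCNNNGAA, in 6.78% of windows, matched only MUC4 among the 9 members, and the grainyhead-like letters AACNNGTT (2.97% of windows) and the forkhead letters TGTTTAC (2.98%) matched none. The ETS letters AGGAAG matched 6 of 9 members (28.7% of windows), the GC box GGGCGG 5 (42.3%) and CCAAT 4 (33.0%). The TATA box letters TATAAA (11.1% of windows) matched MUC1 and CEACAM6. A match describes these letters in these windows and does not show that a factor binds.
OLFM4, chr13:53028563-53028758, plus strand: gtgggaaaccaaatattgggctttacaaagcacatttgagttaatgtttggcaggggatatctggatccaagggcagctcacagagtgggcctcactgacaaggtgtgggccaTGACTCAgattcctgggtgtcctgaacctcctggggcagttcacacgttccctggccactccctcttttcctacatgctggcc

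The secreted proteins of the set spanned the widest range of levels. LCN2 (ENSG00000148346, chr9:128149071-128153455 on the plus strand of GRCh38, as all gene positions here from GENCODE 29) codes for lipocalin 2, which binds bacterial siderophores and so withholds iron. Control libraries had 589 and 638 FPKM and knockdown libraries 526 and 511 FPKM. That placed it at rank 36 in the control mean and rank 40 in the knockdown mean of all genes in the table. The knockdown values lay below both control values, but the gap was small, 614 ± 34.9 against 518 ± 10.8 FPKM (mean ± SD, n = 2 per group), a 1.18-fold difference. Summed FPKM was also higher in control (319780 and 338424) than in knockdown libraries (271297 and 274976). Whether the gap remains after scaling to that sum was not tested.

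OLFM4 (ENSG00000102837, chr13:53028759-53052057, plus strand) codes for olfactomedin 4, a secreted glycoprotein known from intestinal stem cells, activated mucosa and neutrophils. Its level was 13.7 and 13.9 FPKM in control and 2.26 and 2.96 FPKM in knockdown libraries. The control pair was tight, and both knockdown libraries lay far below it, 5.29-fold lower in the mean (4.67-fold to 6.11-fold when any 1 library was left out). On the log2(FPKM + 1) scale the fitted difference was -2.04 (SE 0.14). The gene stood at rank 2729 in the control and rank 8975 in the knockdown mean.

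TCN1 (ENSG00000134827, chr11:59852800-59866575, minus strand) codes for transcobalamin 1, also called haptocorrin, a vitamin B12 carrier of saliva, mucus and neutrophil granules. It stood at 2.17 and 2.42 FPKM in control and at 0.27 and 0.29 FPKM in knockdown libraries. Replicates of a group differed little, and the mean was 8.2-fold lower in the knockdown (7.75-fold to 8.64-fold with 1 library left out), the largest ratio among the members. Because the level is low, the difference on the log2(FPKM + 1) scale was -1.36 (SE 0.152), which understates the ratio. TCN1 passed the filter on low values, which asked for a mean of 1 FPKM or more in either group, through the control group only.

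AGR2 (ENSG00000106541, chr7:16791811-16833433, minus strand) codes for a protein disulfide isomerase of the endoplasmic reticulum that mucus-secreting cells need to fold mucins. Control libraries had 3.5 and 4.33 FPKM and knockdown libraries 0.75 and 1.3 FPKM. The groups did not overlap, and the mean was 3.82-fold lower in the knockdown, with a range of 3.01-fold to 5.22-fold when a library was left out. The fitted difference was -1.29 (SE 0.197) on the log2 scale. Its paralogue AGR3 had 0.16 and 0.5 FPKM in control and was listed at 0 in both knockdown libraries.

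**Figure D1:**
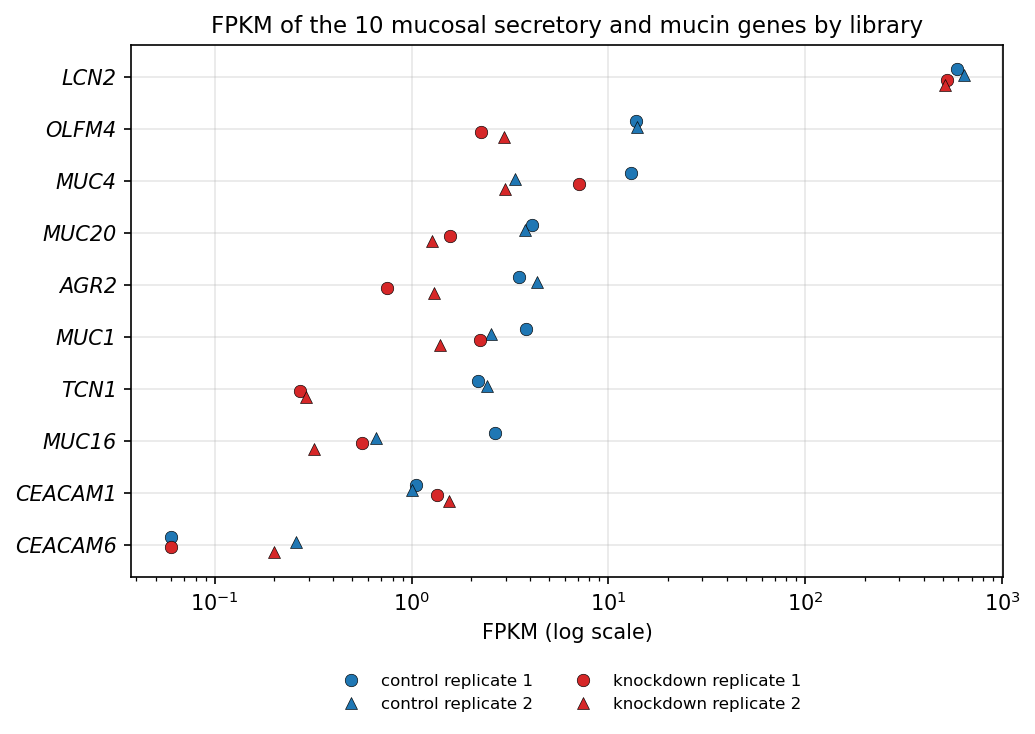
FPKM on a log axis for each of the 10 genes (rows, ordered by the control mean) in the 4 libraries; blue marks are control, red marks knockdown, circles replicate 1 and triangles replicate 2. LCN2 lies at 511 FPKM or more in all 4 libraries, OLFM4, TCN1, AGR2 and MUC20 show 2 separated pairs, and for MUC4 the groups interleave.

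Among the membrane mucins, MUC20 separated the groups most clearly. This small mucin (ENSG00000176945, chr3:195720882-195741123, plus strand), known to associate with the receptor MET, stood at 4.08 and 3.76 FPKM in control and at 1.56 and 1.27 FPKM in knockdown libraries. Its mean was 2.77-fold lower (2.51-fold to 3.09-fold with 1 library left out), with a fitted log2 difference of -1.03 (SE 0.138). In GENCODE 29, 1820 of the 4249 exonic bases of MUC20 are shared on the same strand with the noncoding gene MUC20-OT1, so its value depends on how reads were divided. MUC20-OT1 itself was listed at 1.7 and 1.05 FPKM in control and at 1.42 and 1.35 FPKM in knockdown libraries, where the groups overlapped.

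MUC1 (ENSG00000185499, chr1:155185824-155192916, minus strand), the broadly expressed epithelial mucin whose tail signals inside the cell, stood at 3.81 and 2.54 FPKM in control and at 2.22 and 1.4 FPKM in knockdown libraries. The highest knockdown value came close to the lowest control value. The mean was 1.75-fold lower (1.4-fold to 2.27-fold with 1 library left out). The fitted log2 difference was -0.57 (SE 0.235), and it was -0.35 without control replicate 1 and -0.36 without knockdown replicate 2.

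MUC16 (ENSG00000181143, chr19:8848844-8981342, minus strand), the very large mucin that carries the CA125 antigen of the ocular surface, airway and reproductive tract, was listed at 2.65 and 0.66 FPKM in control and at 0.56 and 0.32 FPKM in knockdown libraries. The knockdown values lay below both control values, yet the control libraries differed 4.02-fold from each other. Control replicate 1 decided the size of the difference: the mean was 3.76-fold lower with it and 1.5-fold lower without it, and the fitted log2 difference of -0.78 (SE 0.409) became -0.21. Like TCN1, MUC16 passed the filter through the control group only.

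MUC4 (ENSG00000145113, chr3:195746765-195812277, minus strand), a membrane mucin that binds the receptor ERBB2, did not separate the groups. It stood at 13.1 and 3.37 FPKM in control and at 7.08 and 2.97 FPKM in knockdown libraries. Replicate 1 was the higher library in both groups, 3.88-fold in control and 2.38-fold in knockdown. The fitted log2 difference was -0.47 (SE 0.653) and turned to 0.37 without control replicate 1 and to 0.04 without knockdown replicate 2.

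MUC4 and MUC16 are also the members with the longest transcripts, 17110 and 43816 bases in GENCODE 29, against 877 to 4170 bases for the other 8. Across 12394 tested genes with a length, longer transcripts tended to be higher in replicate 1 than in replicate 2 of the control group (Spearman rho 0.354 across genes, which are not independent replicates), and less so in the knockdown group (rho 0.123). The median difference, replicate 1 minus replicate 2 on the log2(FPKM + 1) scale, was -0.08 for control transcripts under 2000 bases and 0.34 for the 388 genes over 10000 bases, and the same medians were -0.01 and 0.13 in the knockdown libraries. MUC4 lay at 1.69 and 1.03 and MUC16 at 1.14 and 0.24 in the control and knockdown pairs. The part of transcript length in the values of these mucins was not tested.

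**Figure D2:**
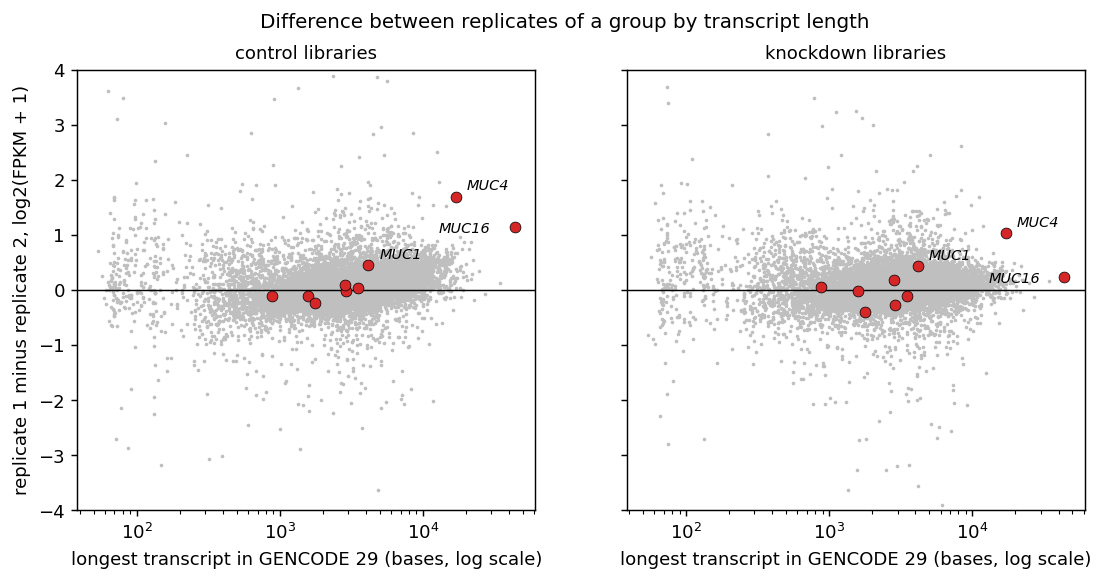
Difference between the 2 libraries of a group (replicate 1 minus replicate 2, log2(FPKM + 1)) against the longest transcript of the gene in bases on a log axis, for the control libraries (left) and the knockdown libraries (right). Grey points are the 12394 tested genes with a length (15 lie beyond the plotted range of 4 in at least 1 panel) and red points the 9 measured members; MUC4 and MUC16 lie at the long end, with MUC4 at 1.69 and 1.03.

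The CEACAM genes were at low levels. CEACAM1 (ENSG00000079385, chr19:42507304-42561234, minus strand), an adhesion molecule that passes inhibitory signals, stood at 1.05 and 1.01 FPKM in control and at 1.35 and 1.54 FPKM in knockdown libraries. It was the only measured member with the knockdown values above both control values, 1.4-fold in the mean, with a fitted log2 difference of 0.27 (SE 0.148). Its antisense neighbour LIPE-AS1, which shares 185 exonic bases with it, did not exceed 0.08 FPKM. CEACAM6 (ENSG00000086548, chr19:41750977-41772208, plus strand), a lipid-anchored relative found on mucosal and tumour epithelia, did not reach the filter, with 0.06 and 0.26 FPKM in control and 0.06 and 0.2 FPKM in knockdown libraries, values that overlapped.

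**Figure D3:**
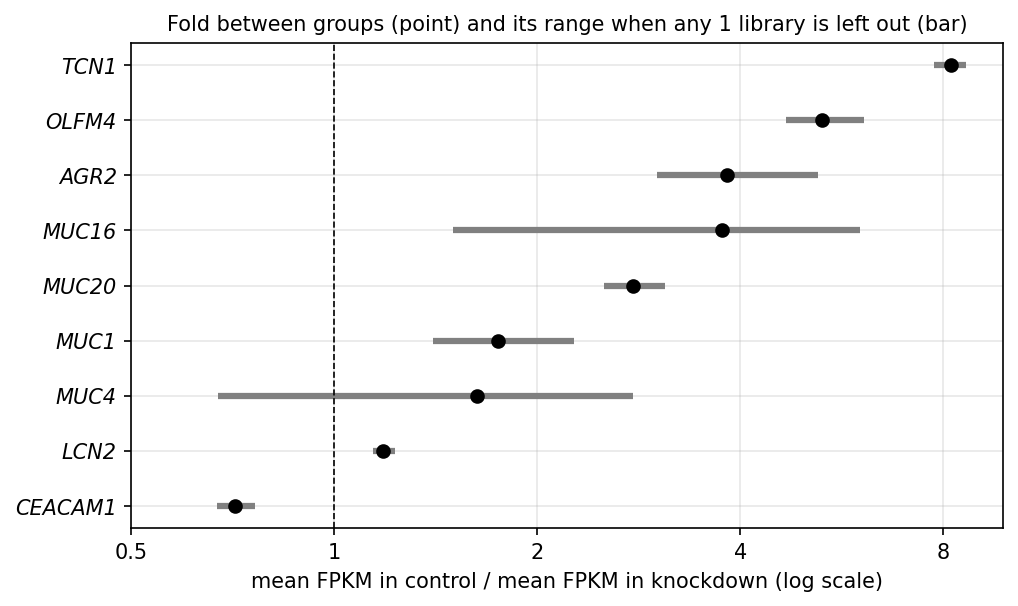
Ratio of the control mean to the knockdown mean of FPKM for the 9 measured members on a log axis (black points), with grey bars from the lowest to the highest ratio when any 1 of the 4 libraries is left out; the dashed line marks equal means. TCN1 lies at 8.2 and OLFM4 at 5.29 with short bars, whereas the bar of MUC4 crosses the line.

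The 9 measured members were also rows of the fit over all 12411 tested genes. Limma with Benjamini-Hochberg adjustment called 0.25% of those genes, 14 higher and 17 lower in the knockdown, with 0.137% lower and 0.113% higher. Under quantile normalization the split was 17 higher and 40 lower, and with each library centred on its median it was 13 and 24. Of the 9 members OLFM4 was called lower and 8 were not called, and OLFM4 lost its call when any 1 library was left out, with no filter on low values and with the replicate number as a block. At least 2-fold lower in mean FPKM were 5 members, against 3.52% of tested genes. The knockdown values lay below both control values without overlap for 7 members, against 19.2% of tested genes, and above them for 1, against 35.6%. These shares are given side by side only, since the members were picked with this comparison known, and 2 of the 9 passed the filter through the control group alone. The authors' deposited table lists log2 ratios of -3.05 for TCN1, -2.41 for OLFM4, -1.94 for AGR2, -1.93 for MUC16 and 0.49 for CEACAM1.

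For OLFM4 and TCN1, the members with the largest fitted differences, the tested genes with the most similar values over the 4 libraries were sought. Genes named only by a clone or as a LINC were left out. Similarity was the Euclidean distance between centred log2(FPKM + 1) values. Nearest to OLFM4 were TNFSF10, the death ligand TRAIL (distance 0.0873), KRT13, a keratin of wet stratified epithelium (0.199), and SCGB1A1, a secretoglobin known as a product of airway club cells (0.22). Nearest to TCN1 were OPN3 (0.0921), the small GTPase RRAS (0.0937) and SLURP2 (0.0945), which was listed at 1.48 and 1.88 FPKM in control and at 0 in both knockdown libraries. SLURP2, like TCN1, passed the filter on low values through the control group only. The distances rest on 4 libraries only, and genes near 2 members with a large fall are bound to be lower in the knockdown too.

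The families of the members were for the most part at or near 0. Of 14 membrane and other cell-surface mucins listed in the table, 8 never exceeded 0.5 FPKM, and MUC13, MUC15, MUC17 and MUC21 were among them. The 2 measured non-members of that list were CD164, an endolysosomal sialomucin, at 19.1 and 20.5 FPKM in the control and knockdown means, and PODXL at 2.0 and 2.08 FPKM. Of 8 secreted mucins none reached the filter. The gel-forming MUC5AC and MUC19 were listed at 0 in all libraries, MUC5B did not exceed 0.01 FPKM and MUC2 did not exceed 0.05 FPKM.

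Among 12 CEACAM genes 8 were listed at 0 in all 4 libraries, CEACAM5 did not exceed 0.33 FPKM, and CEACAM19 stood at 1.86 and 1.0 FPKM in the control and knockdown means (limma adjusted p = 0.2). LCN2 stood almost alone in the lipocalin family, where 17 of 19 genes never exceeded 0.5 FPKM and the other measured gene was APOM, an apolipoprotein, at 1.54 and 0.945 FPKM. APOM passed the filter on low values through the control group only. In the olfactomedin family OLFML2A (5.71 and 3.84 FPKM) and ADGRL2 (3.34 and 3.63 FPKM) were measured beside OLFM4, and neither was called. A value at or near 0 may come from RNA that was not there or from fragments that the counting left out.

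Genes that work with the members inside the cell were present and not called. Of 17 measured genes of AGR proteins and secretory protein folding, none was called higher or lower, and the median log2 difference was 0.12 beside 0.09 over all tested genes, with the same sign in 12 of 13 alternative settings. Over all tested genes 38.6% lay below 0, the share to set beside the counts below 0 in each list. HSPA5, the chaperone BiP, stood at 234 and 267 FPKM in the control and knockdown means, and PDIA3 at 181 and 173 FPKM, while AGR2 was 3.82-fold lower. Of 11 measured genes of vitamin B12 transport and use none was called, with a median of -0.04 that kept its sign in 10 of 13 settings. Besides TCN1 the list held MMADHC at 42.7 and 52.7 FPKM and MTRR at 8.63 and 10.9 FPKM, both genes of cobalamin metabolism.

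Mucins carry O-linked sugars that are started, extended and capped by separate enzymes. Of 23 measured genes of mucin-type O-glycosylation, none was called in either direction, 16 lay below 0 and the median log2 difference was -0.11. GALNT2, an enzyme that starts the chains, stood at 15.2 and 15.1 FPKM in control and at 19.0 and 18.3 FPKM in knockdown libraries, and GALNT12 at 18.1 and 18.4 against 15.1 and 14.9 FPKM. C1GALT1C1, the chaperone Cosmc, was at 20.5, 25.7 and 24.1 FPKM in 3 libraries and at 2.81 FPKM in knockdown replicate 1. Chosen after the values were seen, the sialyltransferase ST6GALNAC1 stood at 3.1 and 2.89 FPKM in control and at 0.94 and 1.04 FPKM in knockdown libraries (limma adjusted p = 0.0723). The secretor fucosyltransferase FUT2 stood at 1.93 and 1.76 against 0.86 and 0.9 FPKM (limma adjusted p = 0.12). ST6GALNAC1 and FUT2 passed the filter on low values through the control group only.

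Of 15 measured ligands, receptors and sheddases tied to the members none was called, and 13 lay below 0 with a median log2 difference of -0.24. LGALS3BP (71.6 and 70.6 FPKM in the control and knockdown means), the protease MMP14 (76.8 and 64.0 FPKM) and EGFR (73.5 and 64.5 FPKM) were the most abundant. The list of transcription factors of secretory epithelium had 11 measured genes and no call, with a median of -0.09 that kept its sign in 12 of 13 settings. ELF3, an epithelial ETS factor, was at 51.1 and 53.4 FPKM in control and at 22.7 and 23.9 FPKM in knockdown libraries, and was not called (limma adjusted p = 0.0533, threshold 0.05). EHF, a related factor, stood at 32.4 and 44.9 FPKM and KLF5 at 25.3 and 19.1 FPKM in the control and knockdown means. SPDEF, a regulator of goblet cells chosen after its values were seen, had 0.07 FPKM in control replicate 1 and was listed at 0 in the other 3 libraries.

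LCN2 belongs to a group of epithelial genes known to respond to NF-kappaB and interleukin 17, of which 21 were measured. None was called, 8 lay below 0 and 13 above, about the share over all tested genes, with a median log2 difference of 0.08 that kept its sign in 9 of 13 settings. S100A9, a subunit of calprotectin, stood at 214 and 241 FPKM in the control and knockdown means, and the acute-phase protein SAA1 at 124 and 99.0 FPKM. Of the protease inhibitors, SLPI stood at 157 and 114 FPKM and PI3 at 92.6 and 156 FPKM (limma adjusted p = 0.216 and 0.0894).

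Other glandular secretory products were found beside the members, although few were measured. Of 36 genes on that list 28 never exceeded 0.5 FPKM, and the trefoil factors TFF1, TFF2 and TFF3, LTF and SCGB3A1 were listed at 0 in all 4 libraries. SCGB1A1 was the most abundant, with 139 and 171 FPKM in control and 31.1 and 41.8 FPKM in knockdown libraries. Its groups did not overlap, with a 4.26-fold lower knockdown mean, but it was not called (limma adjusted p = 0.0533).

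PIGR, the receptor that carries immunoglobulin A across mucosal cells, stood at 36.5 and 34.7 FPKM in control and at 15.9 and 15.5 FPKM in knockdown libraries (limma adjusted p = 0.0533). WFDC2, a secreted protease inhibitor-like protein, was at 42.2 and 36.4 against 24.0 and 20.4 FPKM (limma adjusted p = 0.0923). PSCA, a surface protein of glandular epithelia, was at 1.97 and 2.14 against 0.29 and 0.58 FPKM (limma adjusted p = 0.0849). PSCA passed the filter on low values through the control group only. Without overlap between the groups, 5 of the 6 measured genes of the list lay below control, beside 19.2% of all tested genes, and 1 overlapped. The list was chosen with earlier results of these data known. Of the 6 measured genes none was called, 5 lay below 0, and the summed level of all 36 was 225 and 249 FPKM in control and 74.5 and 81.2 FPKM in knockdown libraries. Without SCGB1A1 that sum was 85.3 and 78.2 against 43.4 and 39.4 FPKM.

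**Figure D4:**
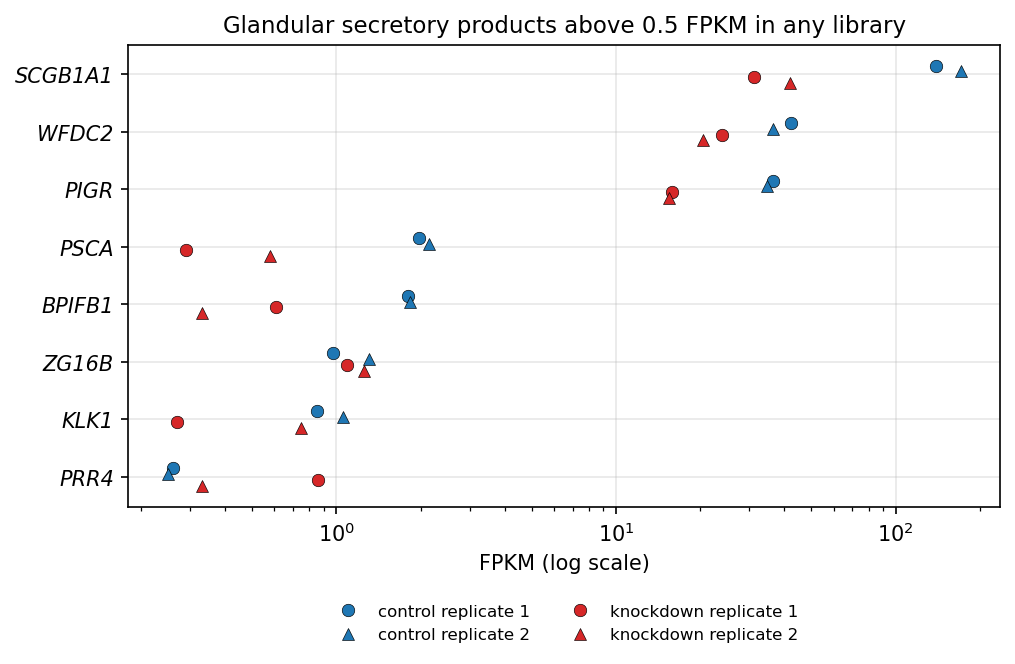
FPKM on a log axis for the 8 genes of the glandular secretory list that exceeded 0.5 FPKM in any library; blue marks are control, red marks knockdown, circles replicate 1 and triangles replicate 2. SCGB1A1, WFDC2, PIGR, PSCA and BPIFB1 show knockdown values below both control values, as 19.2% of all tested genes did, and none of these 5 passed the threshold.

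Genes listed for wet stratified epithelium, which need not be particular to it, were mixed. Of 8 measured genes KRT4, KRT15 and LYPD2 were called lower and 5 were not called, beside 0.137% of all tested genes called lower. Without overlap between the groups, 6 lay below control and 2 above, beside 19.2% and 35.6% of all tested genes. The median log2 difference was -1.1. The list was chosen with earlier results of these data known. The 2 above, named after their values were seen, were SPRR2A, at 1.19 and 1.34 FPKM in control and 1.85 and 1.58 FPKM in knockdown libraries, and ECM1, at 0.61 and 0.45 against 1.37 and 0.7 FPKM. ECM1 passed the filter on low values through the knockdown group only, so it could enter the test only with a higher knockdown mean. KRT4 fell from 17.9 to 1.31 FPKM and LYPD2, a LY6-domain protein, from 6.11 to 0.185 FPKM (limma adjusted p = 0.0261 for each), and KRT15 fell from 31.7 to 8.98 FPKM (adjusted p = 0.0362). These 3 were the only calls among 142 measured genes of all related lists outside the members, and none of them held when any 1 library was left out. LYPD2 passed the filter on low values through the control group only, so it could enter the test only with a lower knockdown mean. The sum over the 22 genes of the list was 1036 and 1143 FPKM in control and 269 and 334 FPKM in knockdown libraries. Most of it was KRT13, which was not called (limma adjusted p = 0.0533), and without KRT13 the sum was 66.6 and 72.3 against 22.0 and 20.8 FPKM. Of 11 measured genes of simple and glandular epithelium none was called and the median was -0.17; the list's sum was 1293 and 1381 against 1031 and 1041 FPKM. Of 10 measured epidermal keratinocyte markers none was called, 9 lay below 0 and the median was -0.37, with a sum of 745 and 784 against 422 and 464 FPKM. A shift in the share of cells that make these products and a change in RNA per cell cannot be told apart in such bulk libraries.

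Defining genes of neutrophils were at or near 0, although several members are also neutrophil genes. Of 20 neutrophil genes 17 never exceeded 0.5 FPKM, and MPO, ELANE, CAMP, LTF, MMP8 and CEACAM8 were listed at 0 in all 4 libraries (LTF is also on the glandular list). The list's sum lay between 2.13 and 2.39 FPKM in control and between 2.61 and 2.89 FPKM in knockdown libraries. Without S100A12 it was 2.39 and 1.75 against 1.64 and 1.78 FPKM, where the groups overlapped. Its 2 measured genes, ABCA13 and S100A12, had control and knockdown means of 1.02 and 1.31 FPKM and of 0.19 and 1.04 FPKM. S100A12 passed the filter on low values through the knockdown group only. The summed level of 14 leukocyte genes was 18.1 and 18.8 FPKM in control and 19.3 and 18.0 FPKM in knockdown libraries, that of 12 fibroblast and endothelial genes was 4.23 to 6.93 FPKM and that of 7 melanocyte genes was 3.38 to 4.68 FPKM over the 4 libraries.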

How the data were processed

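The submitters' processing notes name StringTie 1.3.4d, HISAT2 2.0.4, cutadapt 1.9, edgeR and DESeq2 without saying what each did. Genome build, annotation and strand setting: not given in the sources used here. The authors deposited FPKM values per gene and library, a fold (ratio) column and its log2. For 11905 of 11907 genes averaging 1 FPKM or more over the libraries with both group means above 0, the deposited log2 value lay within 0.05 of the log2 ratio of group means. Low FPKM values were checked for steps of whole reads in genes with 1 transcript: at the best depth 34.1% to 37.0% of values came within 0.1 of a whole read, against a median of 18.4% to 19.0% over the depths tried, and no count test was run because the values could not be turned back into reads. There were 0 FPKM columns without a sample.

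The 12411 genes that averaged 1 FPKM or more in either group entered limma 3.58.1 (R 4.3.3) as log2(FPKM + 1), with trend on, group as the only term, two-sided, Benjamini-Hochberg adjustment and a threshold of 0.05. P-values measure the spread between 2 libraries a group, and an exact permutation test of 2 against 2 could not reach the threshold. The fitting step was first tested on simulated data. There 80.3% of genes changed 2-fold were recovered, and 7.2% of calls fell on unchanged genes, more than the threshold of 0.05 allows. Only genes at higher levels were changed, so that test does not cover low genes such as TCN1. Noise was drawn as normal, with the spread that limma had already evened out across genes, so recovery in the real libraries may be lower. There SCGB1A1 (155 and 36.4 FPKM in the control and knockdown means) and KRT13 (1020 and 280 FPKM) were not called. The members and the related lists were chosen with earlier results of these data known. Named beside the members were lnc-DC, called genes of each list, up to 4 non-members per list with the highest mean FPKM, and the nearest 3 genes to 2 members; other names say that they were chosen after their values were seen, or illustrate markers at or near 0. AGR3, BPIFB1, SPDEF, ST6GALNAC1, FUT2, TP63, SPRR2A, ECM1, MUC20-OT1 and LIPE-AS1 were named after their values were seen. Alternatives changed the pseudocount, filter, scaling, spread estimate or pairing, or left out 1 library. GENCODE 29 (GRCh38) held 58552 of the 58825 gene IDs and gave gene positions, lengths and exon overlaps.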

Additional observations from a re-analysis of the deposited data

How the results depend on the processing

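The calls over all genes depended on the processing. For members whose groups did not overlap, only the settings that rescaled the libraries could have turned the direction. Under the other settings their sign was fixed in advance and adds no support. Under each of the 13 alternatives that could be computed for it (12 for members under 5 FPKM), OLFM4, LCN2, TCN1, MUC1, MUC16, MUC20, CEACAM1 and AGR2 kept the sign of their log2 difference; MUC4 ranged from -1.31 to 0.37 over the left-out libraries, with 0.37 without control replicate 1 and 0.04 without knockdown replicate 2. OLFM4 was called in 7 of the 13. With no filter on low values 0 genes were called higher and 0 lower (3876 with an unadjusted limma p under 0.05), and 0 of the related genes. With a filter at 5 FPKM 31 were called higher and 27 lower, 6 of the related genes were lower and 3 measured members lay below 0, since fewer genes were measured. Under quantile normalization 40 were called lower, 7 of them related genes, and with rescaling to nuclear genes 6 related genes were lower; the cause was not tested. Leaving out any 1 library left 0 called higher, 0 called lower and 0 related genes called lower (1781 to 2235 with an unadjusted p under 0.05), with fewer samples in the fit and the lone library assumed to vary like the other group. The log2 difference of MUC16 ranged from -1.35 to -0.21 and that of OLFM4 from -2.18 to -1.9 over the left-out libraries. With the replicate number as a block 0 genes were called higher, 0 lower and 0 of the related genes (3791 with an unadjusted p under 0.05); the labels do not say that a number pairs libraries, and deviations of same-numbered libraries correlated at r = 0.124 over 12411 genes. No related gene was called higher in the main test. Of 142 measured related genes, 52 had an unadjusted limma p under 0.05 there, 15 of them above 0. Over all 12411 tested genes 2827 had one, 993 of them below 0. The related lists were chosen with earlier results of these data known, so these counts are given side by side only. Depth is unknown, which limits what can be said of CEACAM6 and other genes below 1 FPKM.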
